A study of Mus musculus with 6 samples.

Results

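The axon guidance genes described here were the ligands and receptors of the semaphorin, ephrin, Slit and netrin systems as they were transcribed in mouse basal cell carcinoma. They were chosen by symbol: semaphorins (Sema), plexins (Plxn), neuropilins (Nrp1 and Nrp2), Eph receptors (Epha, Ephb), ephrins (Efna, Efnb), Slit1 to Slit3, the Robo receptors, netrin 1 (Ntn1), Dcc and the Unc5 receptors. That choice was made with earlier results of these data known. The rule found 66 of the 23337 genes in the table, 32 ligands and 34 receptors. Unc50, Unc5cl and Nrp share letters with these symbols but name other genes, and were left out. A gene was called detected where its mean over the 6 libraries was at least 10 normalized counts, the reads of a gene after division by the size factor of its library. By that limit 50 of the 66 guidance genes (75.8%) were detected, against 13671 of 23337 genes (58.6%) in the whole table.

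The libraries held total RNA of basal cell carcinoma cells from ear epidermis of mice that carried 1 R26-SmoM2 allele and K14CreER. SmoM2 is a constitutively active form of Smoothened, the Hedgehog signal transducer, and K14CreER is a tamoxifen-dependent Cre recombinase under a basal keratinocyte keratin promoter. Both groups carried these 2 transgenes and received tamoxifen at 4 weeks of age, with cells taken 6 weeks later. In the knockout group (n = 3) the mice were also Yapfl/fl, and in the wild-type group (n = 3) the labels name no Yap allele. The comparison asked which transcripts differ when the co-activator YAP, the effector of Hippo signalling that acts through TEAD factors, is deleted from these tumours. The labels do not say whether a library came from 1 animal or a pool, so that all p-values here rest on library-to-library spread, which may be technical.

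Yap1 had 591, 773 and 1764 normalized counts in knockout libraries 1 to 3, against 5765, 6004 and 5573 in wild-type libraries 1 to 3, so the targeted gene was low where the labels say so, with the most residual transcript in knockout library 3. Recovered reads ran from 15405490 to 25260431 per library. Replicate 3 of each group carries a label code beginning with DM24 and the other 4 libraries one beginning with DM22. The DM24 libraries had the 2 lowest depths, and the X-inactivation transcript Xist was at 58654 (knockout) and 59594 (wild type) in them, against 8.62 to 15.1 in the DM22 libraries, so sex, depth and whatever the codes mark cannot be told apart. Summed suprabasal keratinocyte markers were at 103378 in knockout library 3, against 24848 to 45749 in the other 5 libraries, a sum made up mostly of Krt1 and Krt10, while Lor was lowest there (44.3). Summed fibroblast markers were at 1637 to 9427, lowest in the same library, but that sum is mostly Dcn. Col1a1, Col1a2 and Col3a1 were second highest in knockout library 3 (154, 132 and 163) and highest in wild-type library 3, and Pdgfrb was highest in knockout library 3 (25.3). Krt5 and Krt14, which define basal keratinocytes, were at 223225 to 347189 and 89194 to 187297. Where the text names library 3 below, the part of these markers in the value was not tested.

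Guidance molecules were named for their work in the developing nervous system, where they attract or repel growing axons. Semaphorins signal through plexins, with neuropilins as co-receptors for most secreted (class 3) members. Ephrins are bound to the membrane and signal to Eph receptor tyrosine kinases on the touching cell, while Slits bind Robo receptors and netrin 1 binds Dcc and the Unc5 receptors. Epithelia use the same molecules at cell contacts, in cell sorting, adhesion and cytoskeletal tension. In bulk RNA, fewer cells of a type and less RNA per cell cannot be told apart.

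The study's title names the factors TEAD and AP-1, so promoters of the guidance genes were searched for the core TEAD letters GGAATG and for the AP-1 letters TGANTCA on both strands. The window was the 250 bases before each start in RefSeq's GRCm38.p6 table, which held 55 windows for 41 of the 50 detected guidance genes. The TEAD letters were in 6 of the 55 windows (10.9%), against 11.1% of the 12303 windows of tested genes and 12.6% of all 32851 windows in the table. The AP-1 letters were in 2 of 55 (3.64%), against 4.78% of the windows of tested genes and 6.75% of all windows. Neither share lay above that of tested genes or of promoters at large. Both windows shown next belong to members that the results return to: Sema4c, which one of the tests called, and Epha2, which was lower in each knockout library than in the wild-type library of the same number. Capitals mark the AP-1 letters in the first, which begin 22 bases before the start, and the TEAD letters in the second, read on the opposite strand, which begin 243 and 56 bases before it. Both windows were picked from those with a match. The other Sema4c window, chr1:36557558-36557807, held neither set of letters. A match describes letters only.
Sema4c, chr1:36558382-36558631, minus strand: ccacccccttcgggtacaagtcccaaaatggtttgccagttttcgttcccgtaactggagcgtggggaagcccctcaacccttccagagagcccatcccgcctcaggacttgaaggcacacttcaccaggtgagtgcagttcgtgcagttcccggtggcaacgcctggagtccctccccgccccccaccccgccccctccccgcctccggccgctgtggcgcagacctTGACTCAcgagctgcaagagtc
Epha2, chr4:141300971-141301220, plus strand: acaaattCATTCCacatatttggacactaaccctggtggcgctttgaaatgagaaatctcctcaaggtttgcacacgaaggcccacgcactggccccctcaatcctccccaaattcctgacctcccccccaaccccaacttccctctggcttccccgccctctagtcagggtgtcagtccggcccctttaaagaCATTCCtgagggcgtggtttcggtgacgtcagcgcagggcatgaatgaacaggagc

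The libraries held transcripts of a broad but selective set of guidance genes. Which cells held each transcript was not tested. All 8 ephrins, 17 of the 20 semaphorins, 8 of the 9 plexins and both neuropilins were detected. The Eph receptors divided by class: all 5 EphB genes were detected, but only Epha1, Epha2 and Epha4 of the 9 EphA genes. Epha3, Epha5, Epha6, Epha7, Epha8, Epha10, Sema3a, Sema4f, Sema6b, Plxnb3, Slit2, Robo3, Robo4, Dcc, Unc5a and Unc5c made up the 16 members under the limit, and the highest value of any of them in any library was 16.4. Of those 16, 9 had at most 3 reads in each library. Dcc, the classical netrin receptor, and Epha6 had 0 reads in all 6 libraries, which allows up to 2.47 to 3.90 normalized counts depending on the library (3 reads, counting error only). Robo4, the Robo of endothelial cells, was at 0, 0 and 1.26 in knockout libraries and 0, 0.958 and 1.30 in wild-type libraries. Of the 7 endothelial markers 2 were detected, Pecam1 at 45.5, 53.6 and 72.1 in knockout libraries and 58.0, 25.9 and 83.2 in wild-type libraries, and Tek at 6.50 to 15.7. The other 5 lay under the limit, with Emcn at 0 in all 6 libraries and Cdh5 at 0 in 5, so the list has no single level.

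Levels of different genes were compared per length, as normalized counts per kb of union exon length. On that scale 28 of the 50 detected members lay above 154, the median of the 12344 tested genes with an annotated length. The most abundant member was Efna1, a membrane-anchored ephrin known as a ligand of EphA2, with a level of 2221 per kb over the 6 libraries. Ephb6, an Eph receptor without kinase activity, was next at 1752 per kb, followed by the plexins Plxnb1 at 1407 and Plxnb2 at 1096, Efnb1 at 1030 and Ephb4 at 973 per kb. At the other end, Nrp1 lay at 6.17 per kb and Nrp2 at 249 per kb, so the class 3 co-receptor transcript in these libraries was mainly Nrp2. The detected members thus spanned levels from 1.23 per kb (Unc5d) to 2221 per kb.

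**Figure D1:**
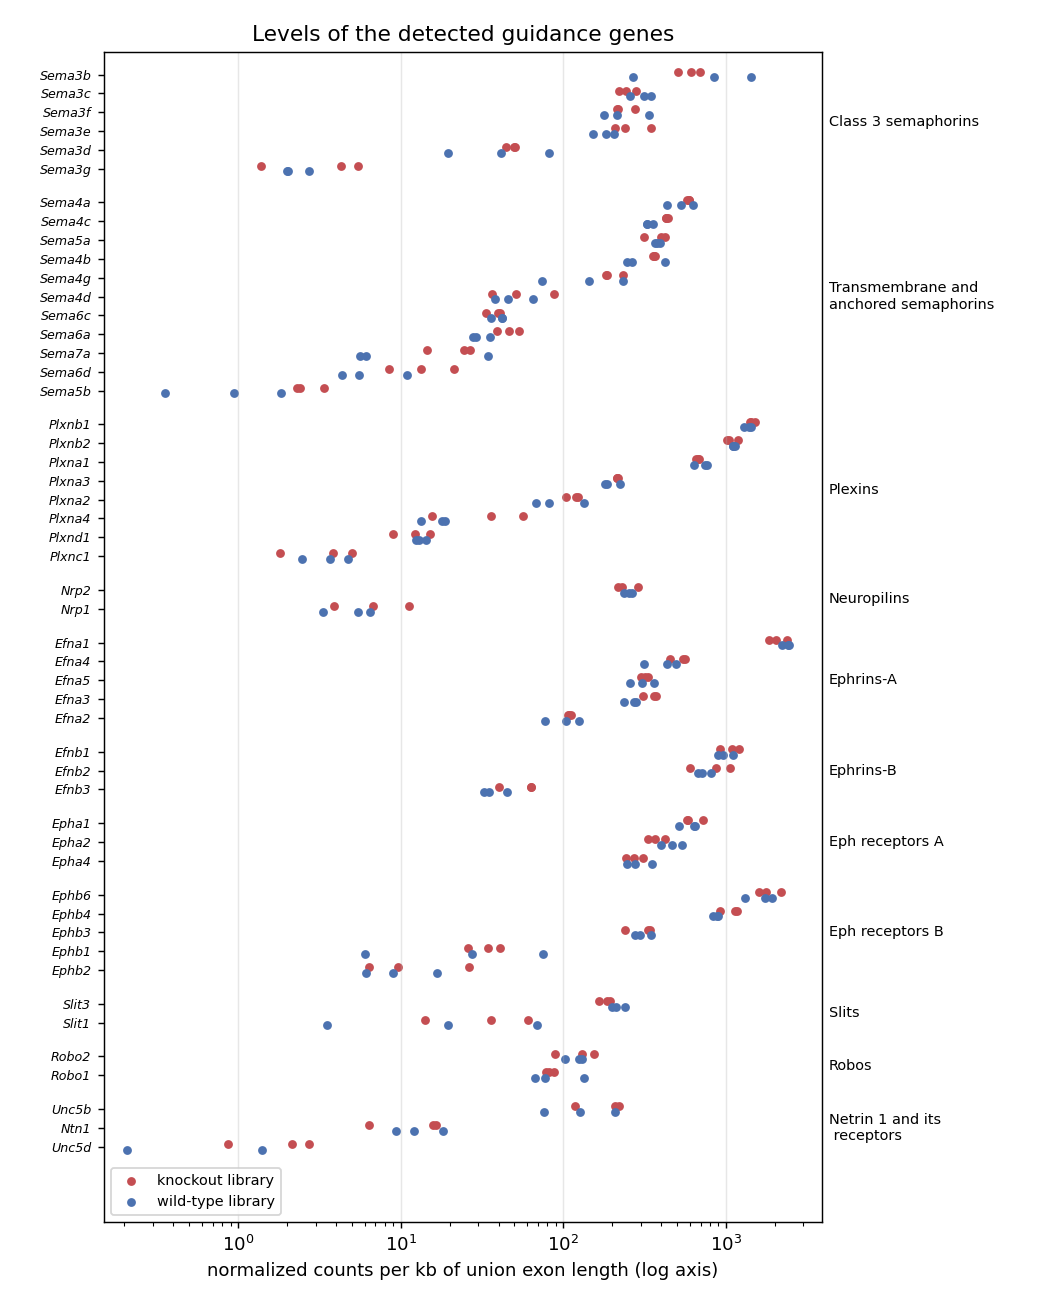
Level of each detected guidance gene in normalized counts per kb of union exon length (log axis), by family, 1 point per library, with knockout libraries above and wild-type libraries below on each row. Levels ran from 1.23 per kb for Unc5d to 2221 per kb for Efna1 as means over 6 libraries, and the library of Unc5d with 0 reads (wild type 1) cannot be drawn on a log axis.

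Summed by family, the levels of the 2 groups overlapped in 10 of the 11 families, the exception being the transmembrane and anchored semaphorins. Those summed to 2135, 2200 and 2102 per kb in knockout libraries and to 1805, 1745 and 2003 per kb in wild-type libraries, so each knockout library lay above each wild-type library. The EphB receptors summed to 3270 ± 453 per kb in knockout and 2884 ± 294 per kb in wild type (SD, n = 3 each), with overlap. The plexins, the main receptors of the semaphorins, summed to 3578 ± 95.7 per kb in knockout and 3523 ± 106 per kb in wild type. The class 3 semaphorins summed to 1404 ± 74.7 per kb in knockout and 1625 ± 469 per kb in wild type. No test was run on sums. For scale, the 2 groups were also fully apart in 11.0% of all tested genes, taken singly.

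Over the 50 tested members the knockout against wild-type comparison gave 0 calls with limma, the main test, at an adjusted p under 0.05, which was also the result for all 13671 genes (0.0% called). The lowest limma adjusted p of a member was 0.667. Yap1, the deleted gene, was not called by limma either (log2 difference -2.63 ± 0.39, SE, adjusted p = 0.517). DESeq2 without a term gave Yap1 an adjusted p of 1.37e-07. The 0 limma calls therefore do not show that levels were equal. At an unadjusted p under 0.05 there were 7 members (5.55% of all genes), 6 of them higher in the knockout (2.55% of all genes). edgeR gave 0 member calls, 0 over all genes (0.0%), and 8 members at an unadjusted p under 0.05 (5.57% of all genes). DESeq2 called 1 member higher, Sema4c, against 0.505% of all genes (0.176% higher, 0.329% lower). With the replicate number as a block DESeq2 called 0 members (1.24% of all genes, 0.417% higher and 0.819% lower). With the code series (DM22 or DM24) as a term, DESeq2 called Sema4c, Sema6d and Ephb4, 3 members that were all higher in the knockout (2.22% of all genes, 0.761% higher and 1.46% lower). limma and edgeR called 0 members with either term.

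More members lay above 0 than below, with a wider spread between libraries than over all genes, but the lean was not shared by the 3 pairs. The log2 difference, knockout minus wild type on log2(normalized count + 1), was above 0 for 33 of the 50 members (66.0%), against 49.0% of all tested genes. Its median was 0.16 over the members and -0.0034 over all tested genes. The size of the difference without its sign had a median of 0.22 over the members and 0.11 over all tested genes, while the median SD between libraries of a group was 0.29 and 0.18 on the log2 scale. The 2 groups were fully apart in 7 members (14.0%), close to the 11.0% of all tested genes. Sema3e, Sema4c, Sema5b, Sema6a, Efna3 and Ephb4 lay higher in the knockout (6 members, 5.08% of all genes) and Slit3 lower (1 member, 5.87% of all genes). Sema5b and Unc5d had wild-type means under the detection limit (7.41 and 4.97, against 19.1 and 17.7 in the knockout). Both were tested only through their knockout values, so they are no support for a direction in any count here. The difference was above 0 in each of the 3 same-numbered pairs for 10 members (15.3% of all genes) and below 0 in each pair for 3, Efna1, Epha2 and Slit3 (17.3% of all genes). These pairs follow the numbers in the labels, and the data do not show that numbers 1 and 2 mark matched libraries. By pair, 37 of 50 members lay above 0 in pair 1 (74.0%, against 49.9% of all genes) and 31 in pair 2 (62.0%, against 47.9%). In pair 3, the DM24 libraries, 24 lay above 0 (48.0%, against 49.5% of all genes), with a member median of -0.06. By role, 20 of 28 ligands and 13 of 22 receptors had a difference above 0, with medians of 0.21 and 0.07.

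**Figure D2:**
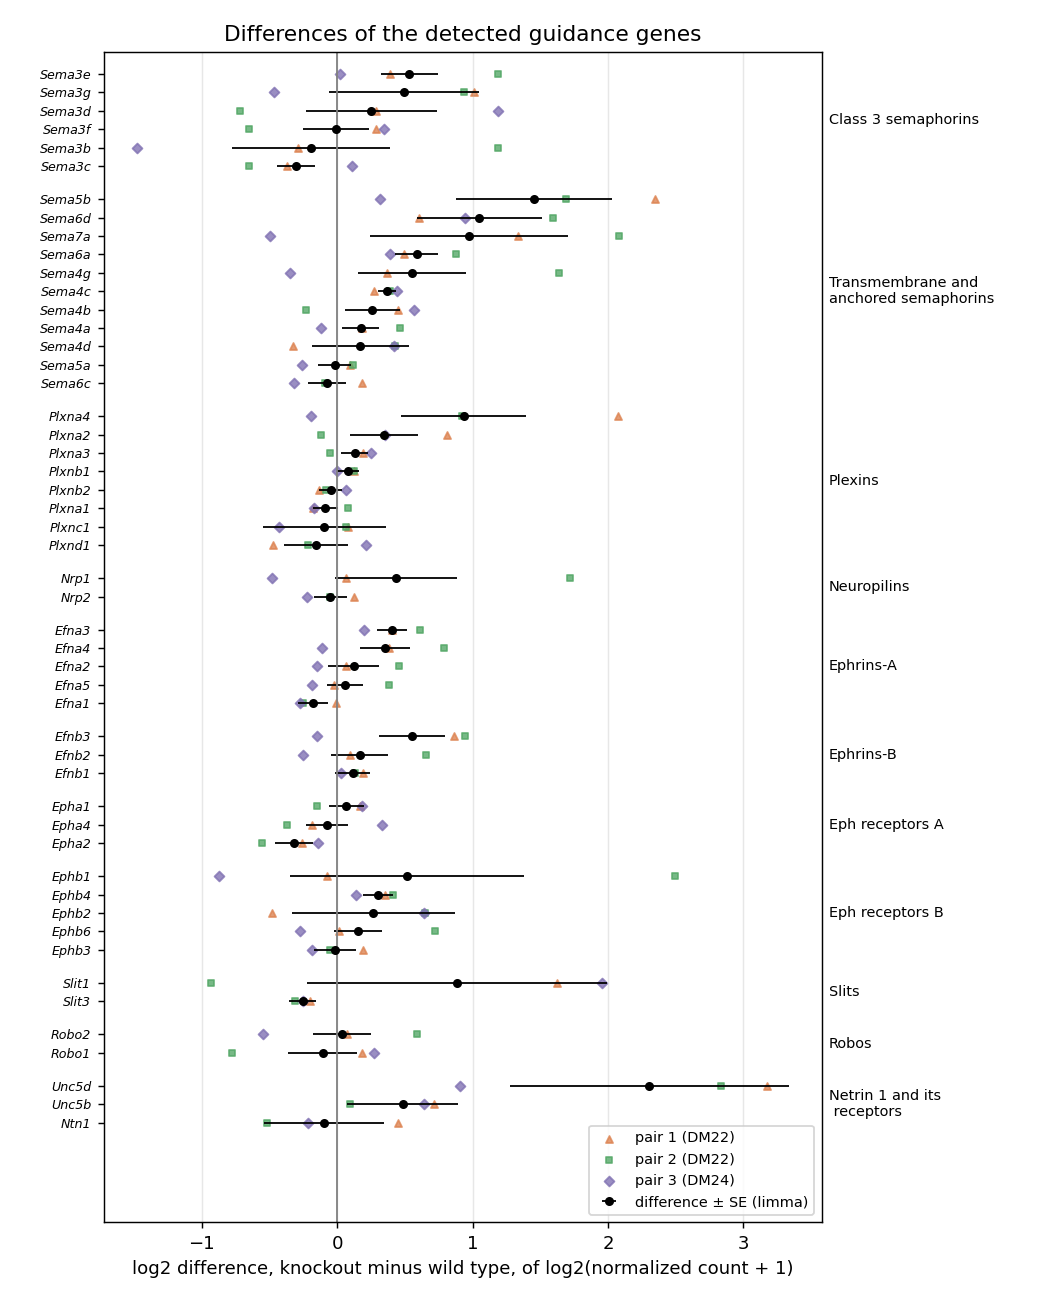
Log2 difference, knockout minus wild type, of each detected guidance gene, with its standard error from limma (black) and the differences in the 3 same-numbered pairs (coloured). Most semaphorins of the transmembrane and anchored group lie right of 0 (9 of 11), and pair 2 often lies apart from pairs 1 and 3.

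The transmembrane and anchored semaphorins held the clearest member. Their median log2 difference was 0.37 over 11 genes, with 9 above 0, and by pair the median was 0.37, 0.46 and 0.32. Sema5b, with the largest of these differences, passed the detection limit only through its knockout values. Sema4c, a transmembrane semaphorin whose receptor is plexin-B2 (chromosome 1, 36548639 to 36558349, minus strand, GRCm38), had 1975, 1955 and 2032 normalized counts in knockout libraries, against 1634, 1494 and 1496 in wild-type libraries. Each knockout library lay above each wild-type library, and the 3 libraries of either group were close together. The means were 1988 ± 39.7 in knockout and 1541 ± 80.6 in wild type (SD, n = 3), a log2 difference of 0.37 ± 0.07 (SE, limma adjusted p = 0.667). The DESeq2 adjusted p was 0.00458 in the plain design, 0.108 under the block and 0.0038 once the code series was fitted. Without knockout library 1 it was 0.0768 and without knockout library 2 it was 0.117, no longer under 0.05, with DESeq2 log2 differences of 0.37 and 0.38 that were no smaller than that of all 6 libraries. The call held without each of the other 4 libraries. Of the exon bases of Sema4c, 7.27% are shared with an antisense gene, and TruSeq RNA v2 libraries, the kind made here, are known not to keep the strand. Its receptor Plxnb2, among the most abundant members, had 7792, 8038 and 9148 normalized counts in knockout libraries and 8534, 8500 and 8745 in wild-type libraries, which overlapped (log2 difference -0.05 ± 0.08, SE).

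Sema6d and Sema6a, which signal through A-type plexins, were the other members of the family that lay higher in each pair with a mean of at least 50. Sema6d had 90.1, 141 and 224 normalized counts in knockout libraries and 58.8, 46.0 and 116 in wild-type libraries, so library 3 was the highest of both groups and the groups overlapped. Its log2 difference was 1.05 ± 0.46 (SE), and 0.61, 1.60 and 0.95 in the 3 pairs. DESeq2 called it when the code series was fitted (adjusted p = 0.0191), whereas the plain design gave an adjusted p of 0.703 and the block 0.151. Without knockout library 3 its DESeq2 difference was 0.66. Sema6a (chromosome 18) had 346, 471 and 408 normalized counts in knockout libraries and 245, 256 and 311 in wild-type libraries, with no overlap. Its log2 difference of 0.59 ± 0.16 (SE) was short of the DESeq2 threshold, with an adjusted p of 0.174 in the plain design and 0.0655 with the code series.

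The plexins that these semaphorins bind varied without a shared direction. Plxna1, a receptor of Sema6d, had 6074 ± 126 normalized counts in knockout and 6482 ± 652 in wild type (SD, n = 3), with overlap, and 10.7% of its exon bases are shared with an antisense gene. Plxna2, a receptor of Sema6a, had 2045, 2118 and 1792 normalized counts in knockout libraries and 1164, 2305 and 1403 in wild-type libraries, so wild-type library 2 was the highest of the 6 and the other 2 wild-type libraries the lowest. Plxna4, also a receptor of Sema6a, had 801, 505 and 220 normalized counts in knockout libraries and 189, 266 and 252 in wild-type libraries. Knockout libraries 1 and 2 of Plxna4 lay above all wild-type libraries and knockout library 3 among them. Over the 4 DM22 libraries alone, DESeq2 called Plxna4 higher (adjusted p = 0.000157), as it did Sema3e (adjusted p = 0.0144), Ephb4 (adjusted p = 0.00832) and Efnb3 (adjusted p = 0.0443), while Sema3c was called lower (adjusted p = 0.0134), against 1.96% of all genes (0.892% higher, 1.07% lower). limma called 0 members in those libraries, against 0.0146% of all genes, all of them lower. Plxnb1, the most abundant plexin, had 13426, 14507 and 13679 normalized counts in knockout libraries and 12316, 13332 and 13720 in wild-type libraries, a log2 difference of 0.08 ± 0.08 (SE).

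None of the remaining transmembrane and anchored semaphorins was called in the designs over all 6 libraries. Sema4a, the most abundant of them per length, had 3198 ± 49.2 normalized counts in knockout and 2865 ± 535 in wild type (SD, n = 3). Sema7a, which is anchored by a lipid and binds plexin-C1 and integrins, had 48.2, 88.2 and 80.9 normalized counts in knockout libraries and 18.5, 20.1 and 114 in wild-type libraries, so the DM24 wild-type library was the highest of all 6. Sema5b, a semaphorin with thrombospondin repeats, was near the detection limit, at 16.9, 23.9 and 16.4 normalized counts in knockout libraries and 2.52, 6.70 and 13.0 in wild-type libraries. Sema4b, Sema4g and Sema4d had differences of 0.26, 0.55 and 0.17, while Sema5a and Sema6c had -0.02 and -0.08, all within 2 standard errors.

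**Figure D3:**
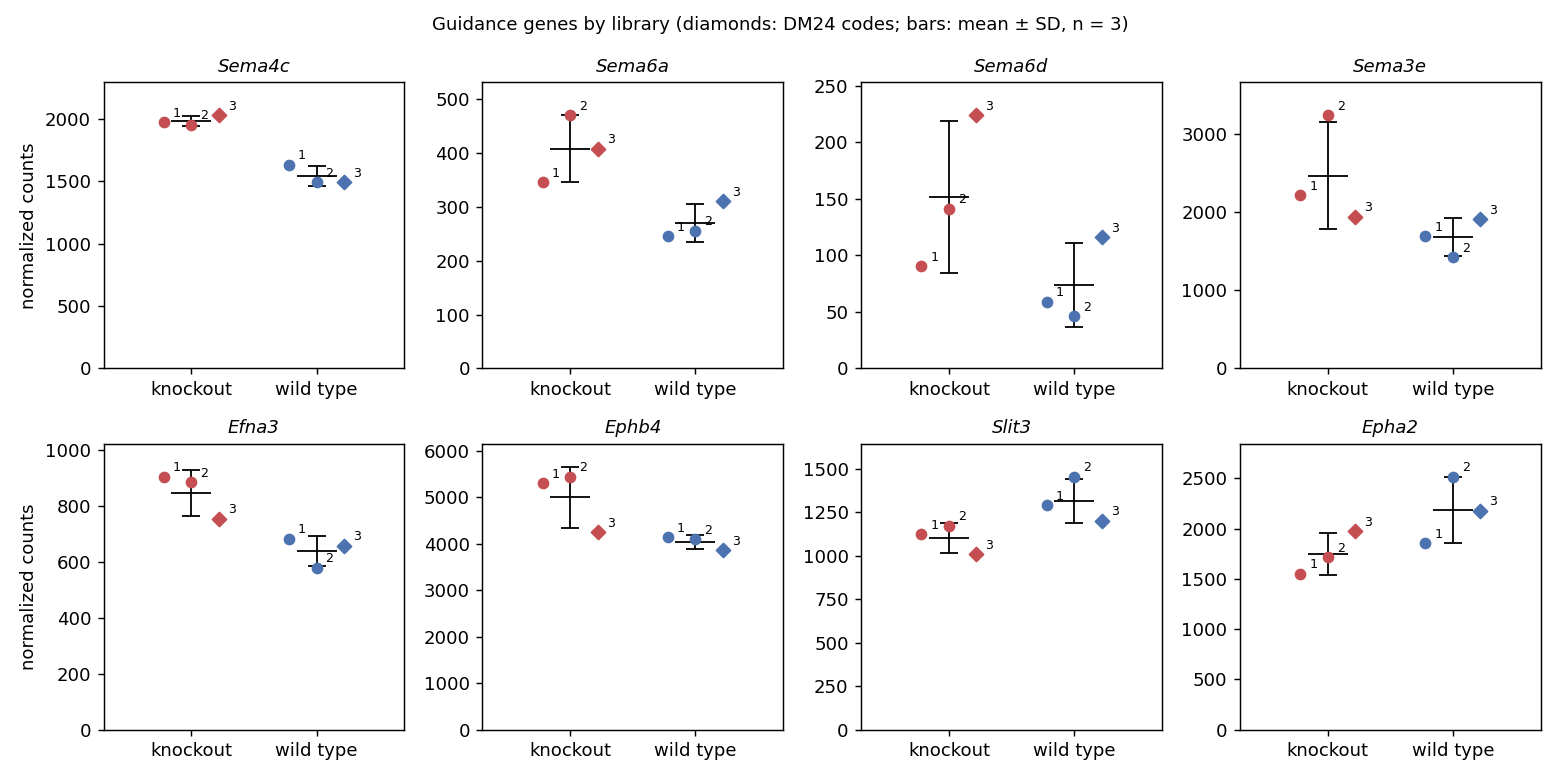
Normalized counts of 8 guidance genes in each library, knockout left and wild type right, with the replicate number beside each point, diamonds for the DM24 libraries and bars for mean ± SD (n = 3). Sema4c lies at 1955 to 2032 in knockout and 1494 to 1634 in wild type, while Sema6d and Epha2 overlap between the groups.

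The secreted class 3 semaphorins showed no common direction. Their median log2 difference was 0.12 over 6 detected genes, 3 above and 3 below 0. Sema3e, which binds plexin-D1 without a neuropilin, had 2214, 3237 and 1940 normalized counts in knockout libraries and 1691, 1423 and 1909 in wild-type libraries. The groups did not overlap, but knockout library 3 and wild-type library 3 were nearly equal. Its log2 difference was 0.53 ± 0.21 (SE), and 0.39, 1.19 and 0.02 in the 3 pairs, with a DESeq2 adjusted p of 0.478. When knockout library 2 was left out, limma gave Sema3e a difference of 0.32. Plxnd1, the receptor of Sema3e and a gene best known from endothelium, had 65.1, 89.9 and 110 normalized counts in knockout libraries and 90.8, 104 and 94.9 in wild-type libraries. Sema3b, the most abundant class 3 member, had 3305, 2908 and 2432 normalized counts in knockout libraries and 1275 to 6789 in wild-type libraries, with library 2 the lowest and library 3 the highest. Its pair differences were -0.29, 1.19 and -1.48, so it had no direction. The co-receptor Nrp2 had 2905 ± 467 normalized counts in knockout and 2986 ± 170 in wild type (SD, n = 3), and Nrp1 had 71.2 ± 36.1 and 49.6 ± 15.6 in the same groups.

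Among Eph receptors and ephrins, Ephb4 and Efna3 lay higher in the knockout without overlap, and Epha2 lay lower in each pair. Ephb4, the receptor of ephrin-B2 known from the separation of arterial and venous cells (chromosome 5, 137350109 to 137378669, plus strand), had 5297, 5442 and 4246 normalized counts in knockout libraries, against 4137, 4095 and 3859 in wild-type libraries. Each knockout library lay above each wild-type library, with knockout library 3 close to wild-type library 1. Its log2 difference was 0.30 ± 0.11 (SE), and 0.36, 0.41 and 0.14 in the 3 pairs. DESeq2 gave an adjusted p of 0.449 in the plain design, 0.278 under the block and 0.0294 once the code series was fitted. The ligand Efnb2 had 5962, 7321 and 4123 normalized counts in knockout libraries and 5574, 4650 and 4923 in wild-type libraries, with the highest and the lowest value both in the knockout. Efnb1, the most abundant B-type ephrin, had 3762, 4176 and 3169 normalized counts in knockout libraries and 3299, 3818 and 3106 in wild-type libraries, with overlap (log2 difference 0.12 ± 0.13, SE). Efnb3 had a log2 difference of 0.55 ± 0.24 (SE).

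Efna3, an A-type ephrin, had 906, 886 and 755 normalized counts in knockout libraries and 683, 579 and 659 in wild-type libraries, with no overlap. Its log2 difference was 0.40 ± 0.11 (SE, DESeq2 adjusted p = 0.193), and 14.1% of its exon bases are shared with an antisense gene. Epha2, an EphA receptor abundant in keratinocytes, had 1554, 1716 and 1974 normalized counts in knockout libraries and 1857, 2518 and 2179 in wild-type libraries. Knockout library 3 lay above wild-type library 1, so the groups overlapped although each pair differed downwards (-0.26, -0.55 and -0.14). The log2 difference of Epha2 was -0.32 ± 0.14 (SE, limma adjusted p = 0.906). Its main ligand Efna1 had 4378, 3731 and 3365 normalized counts in knockout libraries and 4403, 4445 and 4066 in wild-type libraries, a log2 difference of -0.18 ± 0.11 (SE). The pair differences of Efna1 were -0.0081, -0.25 and -0.27, so pair 1 was nearly level. Values below 0 in each pair, as given above, were those of 3 of 50 members and of 17.3% of all genes. Neither Epha2 nor Efna1 passed limma, edgeR or DESeq2 in any of the designs over all 6 libraries. Epha1 and Epha4 had log2 differences of 0.07 ± 0.13 and -0.08 ± 0.16 (SE), and 6.01% of the exon bases of Epha1 are shared with the antisense gene Zyx. Ephb6, the most abundant Eph receptor, had 6641, 8194 and 6005 normalized counts in knockout libraries and 6571, 4975 and 7280 in wild-type libraries, a log2 difference of 0.15 ± 0.18 (SE).

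In the Slit and Robo system, Slit3 was the only member whose groups did not overlap. Slit3, a secreted Robo ligand (chromosome 11, 35121224 to 35708507, plus strand), had 1124, 1171 and 1008 normalized counts in knockout libraries, against 1289, 1454 and 1202 in wild-type libraries. All 3 pairs had similar differences (-0.20, -0.31 and -0.25), and the log2 difference of -0.25 ± 0.10 (SE) passed neither limma (adjusted p = 0.885) nor DESeq2 (adjusted p = 0.77). Slit1 had the widest spread of the system, with 360, 214 and 83.5 normalized counts in knockout libraries and 116, 410 and 20.8 in wild-type libraries. The lowest Slit1 value of each group was in its DM24 library. The receptors Robo1 and Robo2 had log2 differences of -0.11 ± 0.25 and 0.04 ± 0.22 (SE). Robo1 had 1442, 1293 and 1343 normalized counts in knockout libraries and 1270, 2213 and 1111 in wild-type libraries, so wild-type library 2 stood above the other 5. Robo2, the more abundant per length, had 2229, 2615 and 1502 normalized counts in knockout libraries and 2120, 1736 and 2201 in wild-type libraries, with the highest and the lowest value both in the knockout.

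Of netrin 1, Dcc and the Unc5 receptors, Unc5b had the most abundant transcript per length. Unc5b, a netrin receptor that also acts as a dependence receptor, had 1296, 1385 and 742 normalized counts in knockout libraries and 789, 1295 and 475 in wild-type libraries. Each pair differed upwards (0.71, 0.10 and 0.64), but library 3 was the lowest of both groups and the groups overlapped (log2 difference 0.49 ± 0.41, SE, limma adjusted p = 0.987). The limma difference of Unc5b was 0.12 without wild-type library 3 and 0.84 without wild-type library 2. Netrin 1 itself had 80.8 ± 35.1 normalized counts in knockout and 82.8 ± 28.7 in wild type (SD, n = 3). Unc5d, at the detection limit, had 8.03, 19.8 and 25.3 normalized counts in knockout libraries and 0, 1.92 and 13.0 in wild-type libraries. Only its knockout values took Unc5d past that limit.

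Single libraries often held the extreme values of the guidance genes. Wild-type library 2 held the highest value of the 6 for 14 members (28.0%) and the lowest for 16 (32.0%), against 23.1% and 20.0% of all tested genes. It was high for Plxna2, Robo1 and Slit1 and low for Sema3b, Ephb1 and Sema4g. Wild-type library 1 held the highest value of 0 members, against 13.2% of all tested genes. Knockout library 2 held the highest value of 12 of the 50 members, against 12.7% of all tested genes. Between the code series, in a limma fit that held genotype, 2 members differed, both higher in DM24, against 6.75% of all genes (2.68% higher, 4.07% lower). Ephb2 was higher in the DM24 libraries by 1.45 and Sema4d by 0.84 on the log2 scale (limma adjusted p = 0.038 and 0.0494), both named after their values were seen. Ephb2, an EphB receptor, had 80.3, 122 and 331 normalized counts in knockout libraries and 113, 77.6 and 212 in wild-type libraries, with library 3 the highest of each group. A limma fit of the interaction of genotype and code series called 0 members (0.0% of all genes, lowest adjusted p of a member 0.867), with 6 at an unadjusted p under 0.05 (5.47% of all genes). With 1 DM24 library per group, that lack of calls does not show equal differences in both code series. The median interaction, the difference in DM24 minus that in DM22, was -0.25 over the members and 0.0054 over all genes.

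**Figure D4:**
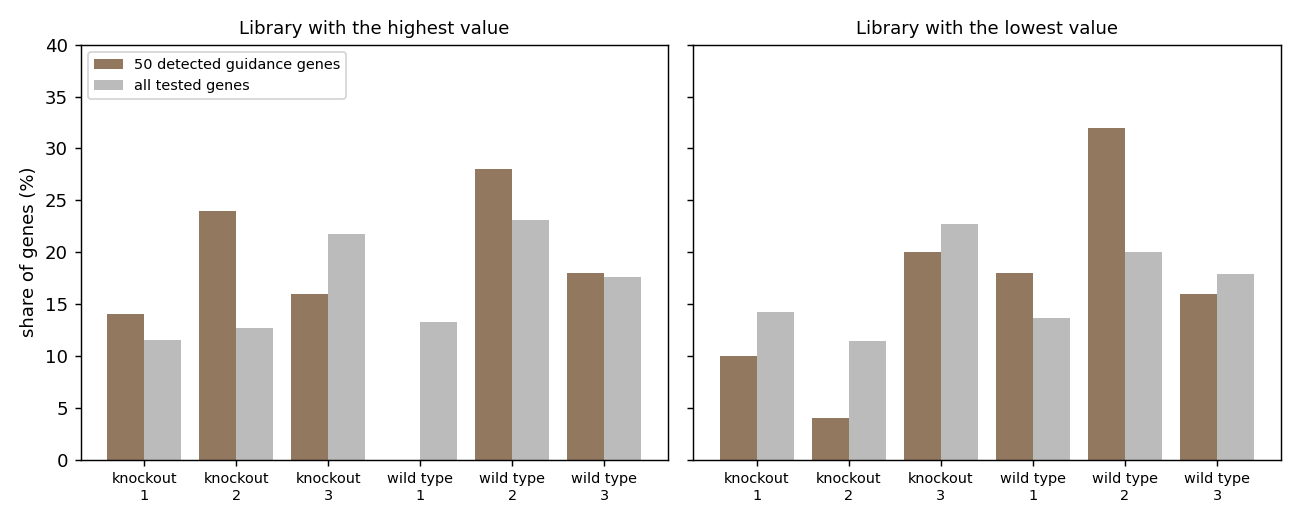
Share of genes (percent) whose highest (left panel) or lowest (right panel) value fell in each library, for the 50 detected guidance genes and for all 13671 tested genes. Wild-type library 2 took 28.0% of the highest and 32.0% of the lowest values of the guidance genes, and wild-type library 1 none of the highest.

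Around the ligands and receptors, a list of 89 co-receptors, adaptors and cytoskeletal effectors of guidance signalling was read, of which 79 were tested. Their median log2 difference was 0.02, with 44 of 79 above 0, against 49.0% of all genes. limma and edgeR called 0 of the 79 in each design. DESeq2 called 0 higher and 2 lower without a term (Gpc4 and Ntn4), where 0.329% of all genes were called lower. It called 0 higher and 3 lower with the block (Flrt3 added, 0.819% of all genes lower) and 0 higher and 4 lower with the code series (Flrt3 and Cxcr4 added, 1.46% of all genes lower). Flrt3, a leucine-rich transmembrane protein that binds Unc5 receptors, had 5153, 3904 and 2444 normalized counts in knockout libraries and 9309, 7465 and 3617 in wild-type libraries. Both DM24 libraries were low and the groups overlapped, while the pairs differed by -0.85, -0.93 and -0.57 (DESeq2 adjusted p = 0.676 without a term and 2.29e-07 with the block). Gpc4, a heparan sulphate proteoglycan of the glypican family, had 2894 ± 345 normalized counts in knockout and 3984 ± 197 in wild type (SD, n = 3), a log2 difference of -0.47 ± 0.10 (SE, DESeq2 adjusted p = 0.0352). Ntn4, a laminin-related netrin of basement membranes, had 124, 129 and 181 normalized counts in knockout libraries and 367, 307 and 349 in wild-type libraries. Cxcr4, a chemokine receptor, differed by -0.57, -0.32 and -0.45 in the 3 pairs (DESeq2 adjusted p = 0.0245 with the code series).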

How the data were processed

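Mouse build mm10 (GRCm38), STAR 2.5 and DESeq2 1.18.1 are named per the submitters' processing notes. How reads were assigned to genes is not given in the sources used here. Libraries were TruSeq RNA v2 per the labels' protocols. The authors deposited 1 table of 23337 genes, with a signal per gene and library that is a size-factor-normalized count. Dividing by the smallest step of a library turned 100% of its values into whole reads (tolerance 0.001 reads), and these reads gave the same size factors by the median of ratios. Counts of 3 reads equal 2.47 to 3.90 normalized counts.

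Genes with a mean of at least 10 were tested (13671). The main test was limma 3.58.1 (R 4.3.3, trend, robust) on log2(normalized count + 1), 3 against 3, two-sided, Benjamini-Hochberg adjustment over all tested genes at 0.05. That scale understates changes of low genes. edgeR 4.0.16 (quasi-likelihood) and DESeq2 1.42.0 on the recovered reads were alternatives, called 0 and 69 of 13671 genes without a term, and were tested on simulated data. Of 13671 genes 270 had no DESeq2 adjusted p, Unc5d among the members. The replicate numbers of the labels were taken as pairs. Deviations from the group means correlated by 0.333, 0.327 and 0.694 between same-numbered libraries, each above 0.1. Within the DM22 libraries the unlike-numbered ones also did, by 0.505 (knockout 1 with wild type 2) and 0.260 (knockout 2 with wild type 1). The correlations thus do not show that numbers 1 and 2 mark pairs. Differences by pair and the replicate block rest on the labels' numbering. Lengths and coordinates (1-based) are from GENCODE M21 on GRCm38.

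The members and lists were chosen with earlier results of these data known. Members were named with their values where any test called them, where the groups did not overlap (mean of at least 50), where they were the most abundant of a family per length, or as partners of those. Other members with values (such as Sema5b, Sema7a, Efnb3, Slit1, Ephb2 and Unc5d) were named after their values were seen.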

Additional observations from a re-analysis of the deposited data

How the results depend on the processing

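The 0 member calls of limma held with other pseudocounts, filters, scalings, the replicate block and the code series, and DESeq2 with the replicate block also gave 0. DESeq2 called 1 member without a term, 3 with the code series and 5 in the DM22 libraries, and 0 to 4 when 1 library was left out. Over all genes DESeq2 called 69 without a term, 169 with the replicate block, 303 with the code series and 268 in the DM22 libraries, where limma called 2. Without 1 library the count over all genes ran from 24 to 235 with DESeq2 (235 without wild-type library 3) and from 0 to 1 with limma. The members that DESeq2 called changed with the library left out. They were Plxna2, Sema3b, Sema4b and Sema4c without wild-type library 2 (3 higher, 1 lower). Without wild-type library 3 they were Sema4c, Sema6a and Sema7a, all higher. Each such fit leaves the code series uneven or smaller, and the cause was not tested. The member median stayed above 0 under every alternative run, 0.10 to 0.24 without 1 library.

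Of the families, the median of the class 3 semaphorins was -0.0072 with edgeR, -0.010 with DESeq2, -0.0070 with DESeq2 in the DM22 libraries and -0.0070 over genes with a mean of at least 50, and -0.15 to 0.36 without 1 library. That of the plexins was 0.072 (limma) and 0.078 (DESeq2) in the DM22 libraries, 0.081 over genes with a mean of at least 50 and 0.011 to 0.11 without 1 library. Without 1 library the transmembrane and anchored semaphorins gave 0.13 to 0.49. Netrin 1 with its receptors gave 0.16 to 0.85, over 3 genes that include Unc5d, tested only through its knockout values. The ranges of the Slits (-0.28 to 0.86), EphB receptors (-0.0059 to 0.29), EphA receptors (-0.19 to 0.078), A-type ephrins (-0.059 to 0.28) and Robos (-0.12 to 0.084) crossed 0. Those of the B-type ephrins (0.024 to 0.40) and neuropilins (0.028 to 0.44) did not.

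Of the named members, Sema3b (0.45 with limma and 0.23 with DESeq2) and Nrp2 (0.037 and 0.053) changed sign in the DM22 libraries. Leaving out 1 library gave Sema3b -0.91 to 0.33, Nrp2 -0.18 to 0.047, Epha1 -0.040 to 0.13, Ephb6 -0.0059 to 0.27, Robo2 -0.13 to 0.27, Robo1 -0.35 to 0.19, Plxnb2 -0.12 to 0.0029, Plxnd1 -0.33 to 0.044, Efnb2 -0.022 to 0.40 and Epha4 -0.19 to 0.078. The replicate block changed 1 member call, the DESeq2 call of Sema4c (adjusted p = 0.108). Detection needs depth: 9 of the 16 undetected members had at most 3 reads in each library.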
